A study of Mus musculus with 24 samples.

Results

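Clones A2 and A1, both *Lkb1*-/-/*Crtc2*-/- MEFs, were compared after stimulation with IL-1β, to ask which inflammatory genes depend on the clone. The comparison rests on 6 of the 24 RNA-seq libraries, 3 of clone A2 and 3 of clone A1, chosen by the genotype and treatment that their labels give. The whole series has 8 groups of 3 libraries. These are wild-type, *Lkb1*-/- and *Lkb1*-/-/*Crtc2*-/- 3T3 MEFs (an immortalized line of mouse embryonic fibroblasts), the last as clones A1 and A2, each group without treatment or with IL-1β for 6 hours. Both clones carry the loss of *Lkb1* in every cell and were grown from single sorted cells after CRISPR cutting in the first exon of *Crtc2*, so each group stands on 1 clone and a trait of that clone cannot be told apart from an effect of its *Crtc2* lesion. Nothing in the sources says that the 3 libraries of a group came from separate lines, so the p-values measure only the spread between these libraries.

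IL-1β is a cytokine that binds the receptor IL1R1, and through the adaptor MyD88 and IRAK and TRAF6 proteins it activates NF-κB and MAP kinases. In fibroblasts this switches on chemokines, cytokines of the IL-6 family, prostaglandin synthesis and matrix proteases. LKB1 is a kinase that activates the salt-inducible kinases, which hold the coactivator CRTC2 in the cytoplasm. Without LKB1, CRTC2 can enter the nucleus and support CREB at cAMP response elements (CRE).

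Levels are given as CPM (counts scaled to library size) after TMM scaling, in the order of libraries 1, 2 and 3 of each clone, and differences as log2 fold changes of clone A2 over clone A1. A gene was called at a Benjamini-Hochberg adjusted p (FDR) under 0.05 in edgeR's quasi-likelihood test, fitted to all libraries. The 6 stimulated libraries held between 38958166 and 45930771 counts on genes. The first principal component of these 6 libraries, with 54% of their variance, separated the clones. The second, with 23.8%, set library 1 of both clones apart from libraries 2 and 3, and 5374 genes were called with all libraries against 6686 without library 1 of every group.

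To show what precedes the start of 3 genes that the results turn on, the bases before the start are printed for *Saa3*, which was higher in clone A2, for *Il6*, also higher, and for *Cxcl2*, which was lower. They are RefSeq sequences of build GRCm38.p6, 5′ to 3′ on the strand of the gene, from chr7:46715701-46715926 (minus strand), chr5:30012864-30013113 (plus strand) and chr5:90903649-90903870 (plus strand), each starting 250 bases before the RefSeq start and ending before the most upstream annotated start. Capitals mark matches, on either strand, to an NF-κB motif (GGG, any 3 bases, then TTCC), a C/EBP motif (TTGCNNAA) or the CRE half-site (TGACG).
Saa3: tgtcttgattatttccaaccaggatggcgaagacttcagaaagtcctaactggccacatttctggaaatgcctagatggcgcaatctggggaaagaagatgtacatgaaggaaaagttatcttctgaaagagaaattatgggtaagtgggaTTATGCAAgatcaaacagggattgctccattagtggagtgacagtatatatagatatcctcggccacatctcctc
Il6: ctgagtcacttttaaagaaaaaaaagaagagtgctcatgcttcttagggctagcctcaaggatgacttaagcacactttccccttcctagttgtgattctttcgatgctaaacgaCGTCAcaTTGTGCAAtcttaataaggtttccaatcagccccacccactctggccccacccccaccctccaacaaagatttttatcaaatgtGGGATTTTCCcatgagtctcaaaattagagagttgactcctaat
Cxcl2: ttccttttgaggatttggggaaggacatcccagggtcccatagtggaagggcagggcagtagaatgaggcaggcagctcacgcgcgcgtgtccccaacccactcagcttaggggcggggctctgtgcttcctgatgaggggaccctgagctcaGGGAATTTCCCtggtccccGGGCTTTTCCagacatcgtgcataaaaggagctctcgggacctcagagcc
The capitals in *Saa3* are 1 C/EBP match, those in *Il6* are a CRE half-site, a C/EBP match and an NF-κB match in this order, and those in *Cxcl2* are 3 NF-κB matches, of which the first 2 overlap on opposite strands. NF-κB matches lay within 250 bases before the start of 5.17% of the 10887 tested genes with a promoter sequence. They were found for 2 of 33 named inflammatory genes that were higher in clone A2 (6.06%) and for 6 of 29 that were lower (20.7%). C/EBP matches were found for 15.2% of the higher and 20.7% of the lower genes, against 7.16% of all. The full CRE (TGACGTCA) was in none of these promoters, against 2.76% of all, and the half-site was in 27.3% of the higher, 24.1% of the lower and 26.9% of all. A STAT motif (TTCNNNGAA) was found for 15.2%, 13.8% and 5.9%. These are descriptions of letters in a window, without a test.

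The targeted genes were not called between the clones with all libraries, but *Stk11* was called in 2 and *Crtc2* in 5 of 16 alternative analyses. Without library 1 of every group their log2 fold changes were -0.19 (FDR = 0.02) and 0.2 (FDR = 0.014). *Stk11*, which encodes LKB1, was at 23.1, 23 and 21.4 CPM in clone A1 and 23.2, 19.9 and 18.9 CPM in clone A2 (log2 fold change -0.12, FDR = 0.2). It was at 16.8 ± 0.483 CPM in stimulated *Lkb1*-/- MEFs, below both clones (log2 fold changes of 0.42, FDR = 5.5e-05, for clone A1 and 0.30, FDR = 0.0018, for clone A2), and at 84.7 ± 1.48 CPM in stimulated wild-type MEFs (SD, n = 3). *Crtc2* was at 52.4, 46.1 and 43.1 CPM in clone A1 and 56.4, 50.1 and 52.4 CPM in clone A2 (log2 fold change 0.17, FDR = 0.064, and FDR = 0.016 when replicate number was fitted as a block). Stimulated *Lkb1*-/- MEFs had 82.7 ± 2.88 CPM (SD, n = 3) of *Crtc2*. A transcript level does not report a small insertion or deletion, so these values do not check the *Crtc2* knockout. Leukocyte, epithelial and endothelial markers were low in both clones. The leukocyte gene *Ptprc* was at 0 in all 6 libraries and 7 of 9 leukocyte markers were below 1 CPM in each. The same was true of 8 of 8 epithelial and 6 of 7 endothelial markers. Fibroblast markers summed to between 8970 and 10128 CPM in clone A1 and between 6386 and 7799 CPM in clone A2, with 1 of 11 tested markers higher (*Pdgfra*) and 4 lower (*Col1a2*, *Col5a1*, *Fn1*, *Vim*). *Thy1*, *Lum* and *Fap* were too low to be tested. Markers of chondrocytes, adipocytes and osteoblasts were present, with sums of 247 to 259 CPM in clone A1 and 233 to 246 CPM in clone A2 and 5 of 12 below 1 CPM in all 6 libraries. Of 8 tested, *Lpl* was higher (log2 fold change 1.63) and *Fabp4* and *Pparg* lower (-0.74 each), and 6 were called with the replicate block, a fit that called 44.4% of all genes (22.5% higher and 21.9% lower). The part of these markers in the results was not tested. Of 10 proliferation markers, *Pcna* was higher, *Cdk1* lower and 8 not called, and 7 of the 10 were called with the replicate block, against 44.4% of all genes.

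The clones differed widely. Of 17522 genes tested, 5374 (30.7%) were called, 2645 of them higher (15.1%) and 2729 lower (15.6%) in clone A2. The 17 lists of inflammatory and signaling genes hold 525 genes, and 428 had enough counts to be tested. Among these, 102 were higher and 87 lower in clone A2 (44.2% called), with a median log2 fold change of 0.08 against 0.01 for all genes. The 3 libraries of clone A2 lay above all 3 of clone A1 for 104 members and below them for 99, and libraries did not overlap for 38.7% of all genes. Differences of more than 1 on the log2 scale were called for 42 members in each direction (9.81% of 428 each), against 3.26% of all genes higher and 3.5% lower. The lists were chosen with earlier results of these data known, so their larger shares are a description and not a test. In these bulk libraries, more cells expressing a gene and more RNA per cell cannot be told apart.

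**Figure D1:**
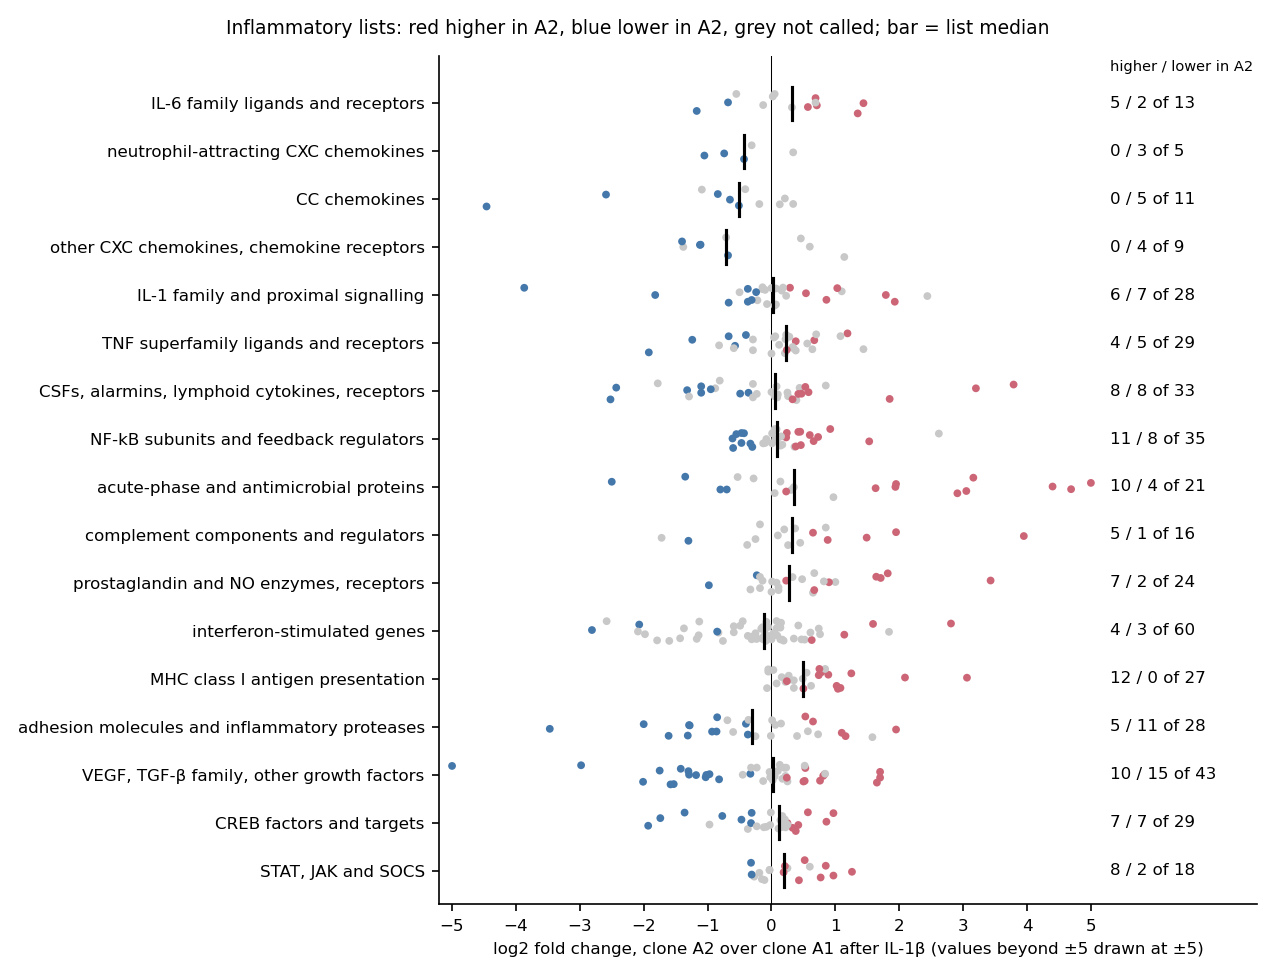
Log2 fold changes of clone A2 over clone A1 after IL-1β (horizontal axis) for the tested members of the 17 lists (vertical axis), with called members in red (higher in A2) or blue (lower), others in grey, and the list median as a bar. The 3 chemokine lists have blue but no red points, and the MHC class I list has 12 red and no blue points.

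Ligands and receptors of the IL-6 family, which signal through gp130, JAK and STAT3, split between the clones. *Il6*, the founding ligand, was at 5.79, 5.87 and 5.97 CPM in clone A1 and at 10.5, 15.8 and 21.6 CPM in clone A2. Every library of clone A2 was above those of clone A1, and *Il6* was 2.72-fold higher (log2 fold change 1.44, SE 0.224, FDR = 4.3e-05). Both clones stayed below the 118 ± 8.39 CPM (SD, n = 3) of stimulated *Lkb1*-/- MEFs. The ligand *Lif* went the other way, with 42.5, 42.6 and 41.3 CPM in clone A1 and 20.4, 15.9 and 19.7 CPM in clone A2 (log2 fold change -1.17, SE 0.145, FDR = 3.1e-06). The ligands *Il11* (log2 fold change -0.55, FDR = 0.16) and *Clcf1* (0.05, FDR = 0.91) were not called. The receptor of LIF, *Lifr*, was at 65.5, 75.6 and 73.9 CPM in clone A1 and 117, 213 and 220 CPM in clone A2 (log2 fold change 1.35, FDR = 0.00016). The other called receptor chains were *Osmr* (0.69, FDR = 0.00026), *Il6ra* (0.71, FDR = 3.1e-06) and the gp130 gene *Il6st* (0.57, FDR = 0.0059), all higher, and *Il11ra1* (-0.68, FDR = 0.0011), lower. In all, 5 of 13 tested members were higher and 2 lower (53.8% called, against 30.7% of all genes).

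Downstream of these receptors, 8 of 18 tested STAT, JAK and SOCS genes were higher in clone A2 and 2 lower. In this list 55.6% were called, against 30.7% of all genes. *Stat3*, the main transcription factor of the pathway, was at 91.7, 108 and 103 CPM in clone A1 and 132, 183 and 202 CPM in clone A2 (log2 fold change 0.77, SE 0.177, FDR = 0.0021). *Socs3*, a feedback inhibitor that STAT3 induces, was at 37.2, 39.2 and 55.1 CPM in clone A1 and 68, 104 and 145 CPM in clone A2 (1.26, SE 0.251, FDR = 0.00055). Both genes were above clone A1 in every library of clone A2, with library 1 lowest. The kinases *Jak2* (0.52, FDR = 0.016) and *Jak3* (0.85, FDR = 4.2e-05) were also higher, and *Tyk2* (-0.32, FDR = 0.0044) and *Socs6* (-0.31, FDR = 0.01) were lower.

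Acute-phase and antimicrobial genes, best known from the liver in inflammation, included the list members with some of the widest gaps between the clones. *Saa3*, a serum amyloid A that mice make outside the liver, was at 5.15, 5.85 and 11.6 CPM in clone A1 and 42.8, 155 and 277 CPM in clone A2. The ranges did not overlap, although the libraries of clone A2 were themselves widely spread, and *Saa3* was 21.1-fold higher (log2 fold change 4.40, SE 0.627, FDR = 1.7e-05). *Lcn2*, which encodes an iron-sequestering antibacterial protein, was at 9.42, 10.5 and 11.3 CPM in clone A1 and 33.6, 85.7 and 140 CPM in clone A2 (8.3-fold, log2 fold change 3.05, FDR = 5e-05). Stimulated *Lkb1*-/- MEFs had 138 ± 59.1 CPM of *Saa3* and 58.3 ± 21.7 CPM of *Lcn2* (SD, n = 3). Without library 1 of every group the log2 fold changes were 4.64 and 3.37. Over all alternatives they ranged from 3.71 to 4.85 for *Saa3* and from 2.51 to 3.44 for *Lcn2*. The acute-phase genes *Orm1* (0.302 to 2.69 CPM in the mean), *Hp* (0.0318 to 0.908 CPM) and *Serpina3n* (2.39 to 9.19 CPM) were higher too, as was *S100a8* (log2 fold change 1.63), a subunit of calprotectin.

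Other members of this list were lower. *Ptx3*, a soluble pattern recognition protein of fibroblasts, was at 627, 780 and 603 CPM in clone A1 and 245, 336 and 209 CPM in clone A2 (log2 fold change -1.35, SE 0.24, FDR = 0.0002). No library of clone A2 reached those of clone A1, and *Lkb1*-/- MEFs lay between the clones with 381 ± 53.2 CPM (SD, n = 3). *Serpina3h* (-0.80, FDR = 0.013) was lower while its neighbor *Serpina3n* was higher, and these near-identical paralogs can share reads, which makes both uncertain. In all, 10 of 21 tested members were higher and 4 lower (66.7% called, against 30.7% of all genes), with a median of 0.35.

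The complement list had 5 of 16 tested members higher and 1 lower (37.5% called, against 30.7% of all genes). *C3*, the central component, was at 194, 249 and 256 CPM in clone A1 and 252, 364 and 478 CPM in clone A2, where the ranges overlap (log2 fold change 0.65, FDR = 0.04). *C4b* (1.95, FDR = 0.0002), *C1s1*, a protease of the classical pathway (0.88, FDR = 0.034), and *Cd55*, a membrane inhibitor (1.49, FDR = 0.012), were higher, and *Clu*, which binds the terminal complex, was lower (-1.30, FDR = 0.0018).

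Chemokines, which guide leukocytes to inflamed tissue, were called in 1 direction. Of 22 tested ligands, 12 were lower in clone A2 and 0 higher, against 15.6% and 15.1% of all genes. A log2 fold change below 0 was found for 18 of 22, and the median was -0.70. *Cxcl2*, a ligand of the neutrophil receptor CXCR2, was at 23.8, 24.2 and 27.1 CPM in clone A1 and 9.18, 12.7 and 14.4 CPM in clone A2 (log2 fold change -1.05, SE 0.178, FDR = 0.00016). *Cxcl1* and *Cxcl5*, which act on the same receptor, differed by less between the clones. *Cxcl1* was at 374, 388 and 452 CPM in clone A1 and 261, 322 and 397 CPM in clone A2 (-0.31, FDR = 0.22, and FDR = 0.11 with the replicate block). Its ranges overlapped, while each library of clone A2 was below the clone A1 library of the same number. *Cxcl5*, with 1989, 1982 and 2477 CPM in clone A1 and 1171, 1615 and 1985 CPM in clone A2, was called (-0.43, FDR = 0.048), but lost the call in 9 of 16 alternative analyses. Of the neutrophil-attracting list 3 of 5 tested members were lower (*Cxcl2*, *Cxcl5* and *Ppbp*), and this fell to 1 when any of 5 single libraries was left out.

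The monocyte chemokines *Ccl2* and *Ccl7*, neighbors on chromosome 11 that act on CCR2, were lower in clone A2. *Ccl2* was at 1424, 1465 and 1508 CPM in clone A1 and 952, 1039 and 1100 CPM in clone A2 (log2 fold change -0.51, SE 0.103, FDR = 0.00066). *Ccl7* was at 1091, 1085 and 1017 CPM in clone A1 and 652, 592 and 538 CPM in clone A2 (-0.84, SE 0.142, FDR = 0.00011). In stimulated *Lkb1*-/- MEFs *Ccl2* was at 865 ± 21 CPM and *Ccl7* at 461 ± 20.4 CPM (SD, n = 3), below both clones. The chemokine *Ccl5* was not called (0.13, FDR = 0.86). *Cx3cl1*, a membrane-bound chemokine, was at 52.6, 69.8 and 81 CPM in clone A1 and 25.1, 30.8 and 37.9 CPM in clone A2 (-1.12, SE 0.165, FDR = 2.5e-05). *Cxcl16* (-1.40, FDR = 0.00041), *Cxcl14* (-1.11, FDR = 0.00017), *Ccl9* (-0.65, FDR = 0.04) and *Cxcl12* (-0.68, FDR = 0.044, ranges overlapping) completed the called ligands above 1 CPM, and the receptors *Ackr3*, *Cxcr4* and *Cxcr6* were not called. Of 11 tested CC chemokines 5 were lower, and 3 when library 1 or 2 of clone A2 or library 2 or 3 of clone A1 was left out.

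**Figure D2:**
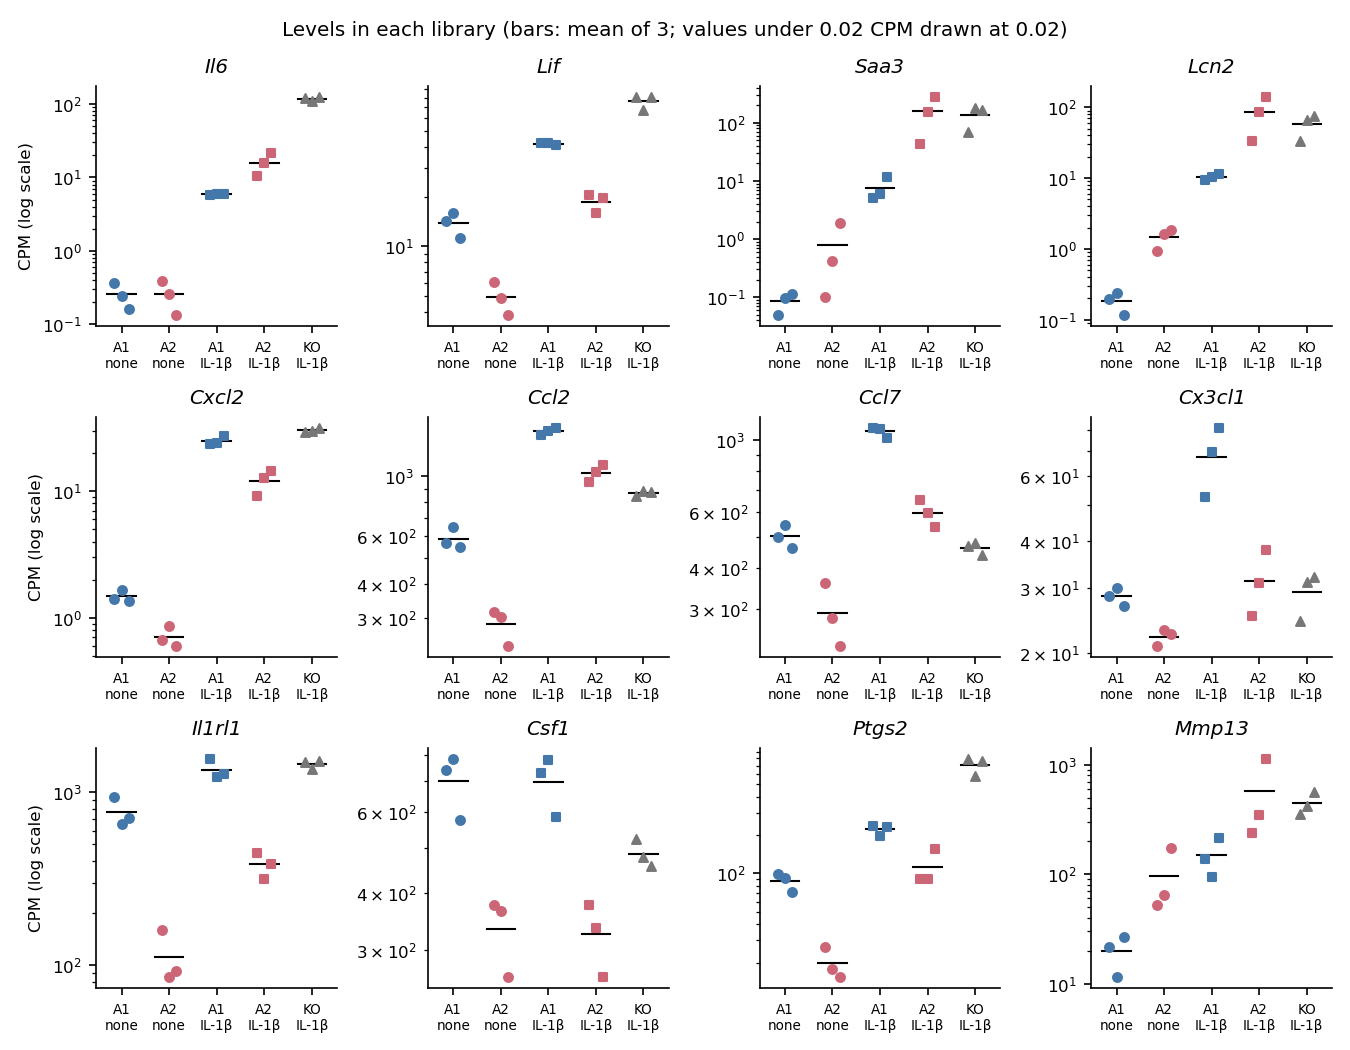
CPM on a log axis for 12 genes in each library of clone A1 (blue), clone A2 (red) and, after IL-1β, Lkb1-/- MEFs (grey), without (circles) and with IL-1β (squares, triangles), with bars at the mean of 3 libraries. After IL-1β clone A2 lies above clone A1 for Il6, Saa3, Lcn2 and Mmp13 and below it for the other 8 genes.

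In the IL-1 family and its proximal signaling, 6 of 28 tested members were higher and 7 lower (46.4% called, against 30.7% of all genes). *Il1rl1*, which encodes the IL-33 receptor ST2 in a membrane and a secreted form, was at 1555, 1215 and 1279 CPM in clone A1 and 448, 314 and 385 CPM in clone A2 (3.53-fold lower, log2 fold change -1.82, SE 0.189, FDR = 3.3e-07). *Lkb1*-/- MEFs, with 1462 ± 82 CPM (SD, n = 3), were near clone A1. *Il1r1*, the receptor of IL-1β itself, was at 114, 113 and 92.4 CPM in clone A1 and 134, 172 and 158 CPM in clone A2 (0.54, SE 0.14, FDR = 0.0056). *Irak3*, a kinase-dead inhibitor of this signaling, was at 3.04, 3.57 and 3.5 CPM in clone A1 and 8.61, 13.6 and 16.5 CPM in clone A2 (1.93, FDR = 8.8e-06). *Irak1* (-0.37, FDR = 0.00031) and *Irak2* (-0.37, FDR = 0.025), kinases that carry the signal, were lower, and *Traf6* (0.29, FDR = 0.005) was higher.

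Among TNF superfamily genes, 4 of 29 tested were higher and 5 lower, a called share of 31% against 30.7% of all genes. The ligand *Tnfsf11* (RANKL, the osteoclast differentiation factor) and its receptor *Tnfrsf11a* moved apart. *Tnfsf11* was at 22.9, 22.9 and 24.8 CPM in clone A1 and 29.9, 45.6 and 86 CPM in clone A2 (log2 fold change 1.19, SE 0.28, FDR = 0.0035, and 0.67 without library 3 of clone A2). *Tnfrsf11a* was at 17, 17.1 and 18.3 CPM in clone A1 and 6.66, 7.44 and 8.1 CPM in clone A2 (-1.24, SE 0.0773, FDR = 3.3e-10). Of colony-stimulating factors, alarmins, lymphoid cytokines and their receptors, 8 of 33 tested were higher and 8 lower (48.5% called, against 30.7% of all genes). *Csf1*, the growth factor of macrophages, was at 731, 777 and 585 CPM in clone A1 and 376, 336 and 263 CPM in clone A2 (-1.10, SE 0.152, FDR = 1.2e-05). *Csf2rb*, the shared beta chain of receptors for GM-CSF, IL-3 and IL-5, was low in clone A1 at 0.172, 0.207 and 0.275 CPM and higher in clone A2 at 1.81, 2.17 and 2.11 CPM (3.20, FDR = 8.5e-07), with a paralog, *Csf2rb2*, that can share its reads.

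NF-κB subunits and the feedback genes that NF-κB induces had 11 of 35 members higher and 8 lower (54.3% called, against 30.7% of all genes). *Tnfaip3*, which encodes the inhibitor A20, was at 108, 119 and 130 CPM in clone A1 and 64.7, 74.8 and 95.4 CPM in clone A2 (log2 fold change -0.60, SE 0.128, FDR = 0.001). *Nfkbia*, the inhibitor IκBα, was lower as well (-0.43, FDR = 0.0053), as were the subunits *Rel* (-0.47, FDR = 0.00063) and *Nfkb1* (-0.33, FDR = 0.0078), while the subunit *Rela* was higher (0.23, FDR = 0.017). *Sod2*, a mitochondrial superoxide dismutase, was at 129, 160 and 166 CPM in clone A1 and 278, 471 and 566 CPM in clone A2 (1.53, SE 0.186, FDR = 2.5e-06). *Cebpb*, a transcription factor that acts with NF-κB at acute-phase genes, was at 162, 171 and 245 CPM in clone A1 and 259, 359 and 475 CPM in clone A2 (0.92, SE 0.217, FDR = 0.0026).

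In the prostaglandin and nitric oxide list, 7 of 24 tested members were higher and 2 lower (37.5% called, against 30.7% of all genes). *Ptgs2*, the inducible cyclooxygenase COX-2, was at 237, 196 and 231 CPM in clone A1 and 90.8, 89.7 and 156 CPM in clone A2 (log2 fold change -0.98, SE 0.253, FDR = 0.0053). Both clones were below the 708 ± 114 CPM (SD, n = 3) of *Lkb1*-/- MEFs. *Ptges*, the inducible synthase that follows COX-2 on the way to prostaglandin E2, was higher (1.64, FDR = 0.0015), as was *Ptgfr*, the receptor of prostaglandin F2α (0.90, FDR = 0.0063). *Ass1*, which supplies arginine for nitric oxide synthesis, was at 19.4, 18.3 and 17.4 CPM in clone A1 and 50.7, 69.8 and 74.1 CPM in clone A2 (1.82, SE 0.133, FDR = 2.8e-09).

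Adhesion molecules and proteases had 5 of 28 tested members higher and 11 lower (57.1% called, against 30.7% of all genes). The matrix metalloproteinases *Mmp13* and *Mmp3*, which degrade collagen and other matrix proteins, were among the higher genes. *Mmp13* was at 137, 94 and 214 CPM in clone A1 and 238, 348 and 1132 CPM in clone A2 (log2 fold change 1.95, SE 0.478, FDR = 0.0035). Library 3 of clone A2 stood above the other two, and the value ranged from 0.98 to 2.32 over the alternatives, with the call lost without that library (0.98, FDR = 0.067). *Mmp3* was at 454, 328 and 401 CPM in clone A1 and 570, 730 and 1350 CPM in clone A2 (1.16, SE 0.256, FDR = 0.0014, and 0.71 without library 3 of clone A2). The metalloproteinase inhibitor *Timp3* was at 627, 803 and 641 CPM in clone A1 and 242, 256 and 178 CPM in clone A2 (-1.61, SE 0.164, FDR = 2.5e-07). The plasminogen activator *Plau* (-1.31, FDR = 9e-09) and its receptor *Plaur* (-0.86, FDR = 0.0035) were both lower. *Vcam1*, which binds leukocyte integrins, was at 71, 108 and 105 CPM in clone A1 and 29.6, 45.5 and 41.9 CPM in clone A2 (-1.28, FDR = 7.6e-05), and *Icam1* was lower at levels near 1 CPM and below (-2.00, FDR = 0.0016).

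Genes of MHC class I antigen presentation were called in 1 direction, with 12 of 27 tested members higher in clone A2 and 0 lower, against 15.1% of all genes higher (19 higher with the replicate block, against 22.5% of all genes in that fit), and a median of 0.50. *Psmb8*, an immunoproteasome subunit, was at 0.858, 0.898 and 1.55 CPM in clone A1 and 7.68, 9.77 and 10.1 CPM in clone A2 (log2 fold change 3.06, SE 0.467, FDR = 3.6e-05). *H2-D1*, a class I heavy chain, was at 110, 130 and 124 CPM in clone A1 and 194, 218 and 214 CPM in clone A2 (0.78, SE 0.127, FDR = 7.1e-05). The peptide transporters *Tap1* (1.25, FDR = 0.016) and *Tap2* (1.08, FDR = 0.007) were higher too. The class I heavy chains are near-identical paralogs whose reads can be split. The interferon-stimulated list had 4 of 60 tested members higher and 3 lower, and 21 called with the replicate block, in both fits a smaller share than that of all genes (30.7% and 44.4%).

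Most of the class I genes lie in the MHC region of chromosome 17, and the medians of some chromosomes differed between the clones. Over all genes with a mean log2 CPM above 1, the median log2 fold change was 0.47 on chromosome 17 (74.4% of 570 genes higher), 0.244 on chromosome 13, -0.344 on chromosome 9, -0.343 on chromosome 12 and -0.384 on chromosome 18. Untreated libraries, which are separate samples, gave medians of 0.467, 0.245, -0.337, -0.351 and -0.377 for these chromosomes. After IL-1β, chromosome 17 was at -0.397 in clone A1 and 0.0628 in clone A2 against *Lkb1*-/- MEFs. Of the 17 tested class I members on chromosome 17, 10 were higher with a median of 0.78, and of 10 on other chromosomes 2 were higher with a median of 0.23. Other named genes on these chromosomes include *Sod2*, *C3* and *C4b* (chromosome 17) and *Mmp13*, *Mmp3*, *Icam1*, *Tgfbr2* and *Tyk2* (chromosome 9). They also include *Nfkbia*, *Tgfb3* and *Serpina3h* (chromosome 12) and *Il6st* (chromosome 13). The values of *Nfkbia* and *Tyk2* were near the medians of their chromosomes. Leaving out chromosomes 9, 12, 13, 17 and 18, 73 of 335 list members were higher (21.8%) and 65 lower (19.4%), with a median of 0.05, against 16.4% and 16% of all genes on the remaining chromosomes with a mean log2 CPM above 1. The part of the chromosomes in the single-gene results was not tested.

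**Figure D3:**
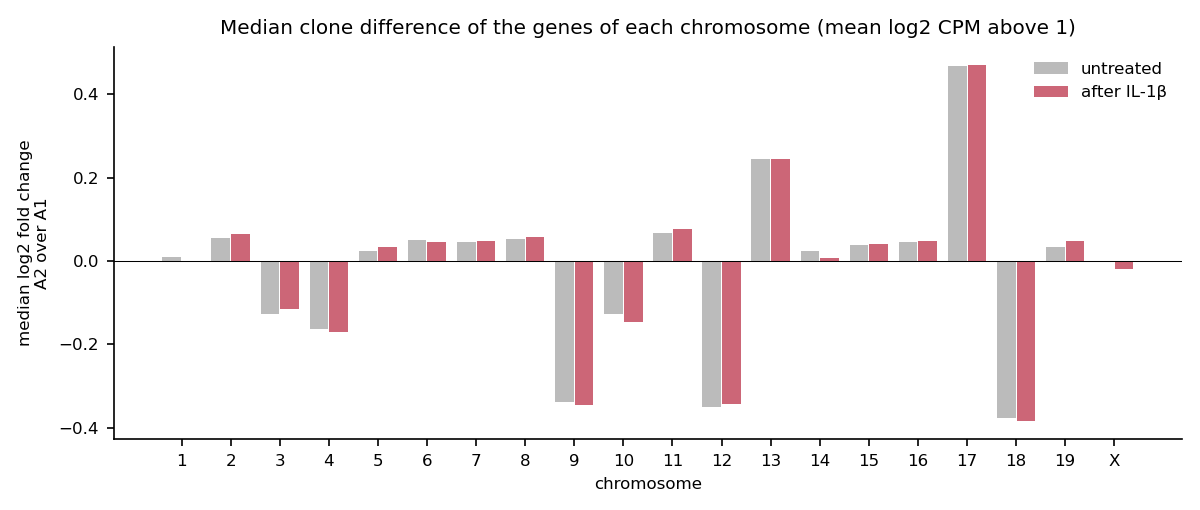
Median log2 fold change of clone A2 over clone A1 (vertical axis) of the genes of each chromosome (horizontal axis) with a mean log2 CPM above 1, untreated (grey) and after IL-1β (red). Chromosomes 13 and 17 are above 0 and 9, 12 and 18 below 0 by more than 0.2, with nearly the same height under both conditions.

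Growth factors and their antagonists had 10 of 43 tested members higher and 15 lower (58.1% called, against 30.7% of all genes). *Inhba*, the activin A subunit, was at 87.2, 91.1 and 93.1 CPM in clone A1 and 34.9, 27.3 and 28.3 CPM in clone A2 (log2 fold change -1.58, SE 0.12, FDR = 4.8e-09). *Tgfbr2*, the type II receptor of TGF-β, was at 267, 311 and 340 CPM in clone A1 and 113, 124 and 137 CPM in clone A2 (-1.29, SE 0.127, FDR = 1.6e-07). The ligands *Tgfb2* (-1.02, FDR = 6.2e-05) and *Tgfb3* (-1.03, FDR = 9e-06) were lower and *Tgfb1* (0.50, FDR = 0.0031) was higher. The BMP antagonists moved apart. *Grem1* was at 197, 133 and 122 CPM in clone A1 and 374, 502 and 591 CPM in clone A2 (1.70, SE 0.205, FDR = 2.3e-06), and *Nog* was lower at a few CPM (-2.98, FDR = 1e-06). *Vegfa* was not called (0.23, FDR = 0.27). Beside these, 3 of 6 tested myofibroblast markers were lower, among them *Acta2*, the smooth muscle actin, at 17.8, 28.4 and 20.2 CPM in clone A1 and 3.09, 5.42 and 5.63 CPM in clone A2 (-2.23, FDR = 1.1e-05). In the same list *Des* (1.10, FDR = 0.053, and FDR = 0.005 with the replicate block), *Cnn1* (-0.07) and *Tpm2* (-0.09) were not called. *Tagln* was lower (-4.16, FDR = 1.3e-06), but not with counts of both strands (-1.01, FDR = 0.28). The part of this marker list in the other results was not tested.

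CREB factors, CRTC coactivators and CREB targets had 7 of 29 tested members higher and 7 lower, with a median of 0.11. In this list 48.3% were called, against 30.7% of all genes. *Bdnf*, a neurotrophin with a CREB-responsive promoter, was at 27.8, 25.4 and 19.7 CPM in clone A1 and 7.75, 6.05 and 5.26 CPM in clone A2 (log2 fold change -1.93, SE 0.163, FDR = 1.9e-08). *Ppargc1a* (-1.74, FDR = 0.00047) was lower, and *Nfil3* (0.86, FDR = 0.00031) and *Nr4a2* (0.57, FDR = 0.038) were higher. The CRTC2 paralogs *Crtc1* (0.25, FDR = 0.01) and *Crtc3* (0.42, FDR = 0.017) were higher, and *Nr4a1* (-0.02, FDR = 0.96) and *Crem* (-0.37, FDR = 0.052) were not called. The cytokine genes that the study listed for *Lkb1*-/- against wild-type MEFs, chosen on this series, had 15 of 60 tested members higher and 16 lower. Of all genes, 15.1% were higher and 15.6% lower.

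Which clone departed from its *Lkb1*-/- parent was read from 2 further comparisons, which share libraries with the first and are set side by side only. Clone A1 was called against stimulated *Lkb1*-/- MEFs for 36.7% of all genes and clone A2 for 32.8%. Of the 102 list members higher in clone A2, 46 were called against *Lkb1*-/- MEFs in clone A1 alone, 21 in clone A2 alone, 21 in both and 14 in neither. Of the 87 that were lower, these numbers were 30, 21, 29 and 7. *Saa3*, *Lcn2*, *Irak3* and *Ass1* were called lower in clone A1 than in *Lkb1*-/- MEFs, while clone A2 differed from these by log2 fold changes of 0.20, 0.56, -0.21 and -0.34. *Il1rl1* and *Timp3* were not called in clone A1, and clone A2 differed by -1.94 and -1.23.

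The same comparison without IL-1β, in separate libraries of both clones, called 5692 genes (32.5%). Of the 5374 genes called after IL-1β, 4367 (81.3%) had the same call untreated, which is 76.7% of the untreated calls, and 3 had the opposite call. Across 9369 genes the log2 fold changes correlated with Pearson's r = 0.939, a description over genes, which are not independent. Of the 189 called list members, 132 had the same call untreated, 57 were not called untreated and 0 had the opposite call. *Lif* (-1.49), *Il1rl1* (-2.78), *Csf1* (-1.07), *Lifr* (1.28) and *Ass1* (1.76) already differed without IL-1β. *Il6* was at 0.366, 0.24 and 0.161 CPM in untreated clone A1 and 0.383, 0.255 and 0.132 CPM in untreated clone A2 (0.03, FDR = 0.97). *Tnfsf11* (0.20, FDR = 0.67), *Mmp3* (0.11, FDR = 0.8), *Sod2* (0.40, FDR = 0.1) and *Cx3cl1* (-0.36, FDR = 0.1) were likewise not called untreated, and neither was *Saa3* (3.13, FDR = 0.15), at 0.0488, 0.096 and 0.115 CPM in untreated clone A1 and 0.101, 0.417 and 1.87 CPM in untreated clone A2.

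**Figure D4:**
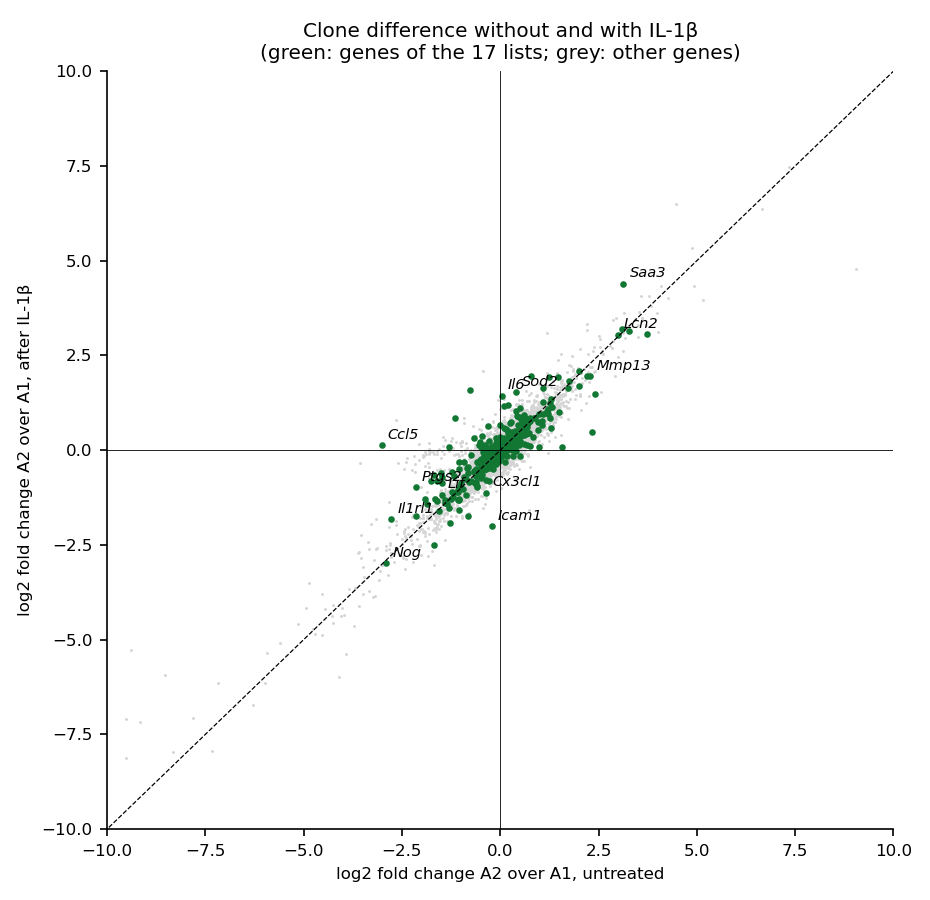
Log2 fold change of clone A2 over clone A1 untreated (horizontal axis) and after IL-1β (vertical axis) for all tested genes (grey) and the members of the 17 lists (green), with the line of equality dashed. Most points follow the line, while Il6, Sod2 and Ccl5 lie above it and Icam1 and Cx3cl1 below it.

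IL-1β itself was called for 1.99% of genes in clone A1 (348) and 5.68% in clone A2 (995), and for 1684 and 3133 genes with the replicate number as a block (2860 and 4557 with the block within genotype). The order of the clones turned when only the groups compared were fitted, with 471 genes in clone A1 and 246 in clone A2. It raised 54 list members in clone A1 and 91 in clone A2, 50 of them in both. Of the 115 members it moved in either clone, 36 were higher and 35 lower in clone A2, and 44 were not called between the clones. Among all 1037 genes moved by IL-1β in either clone, 23% were higher and 29.7% lower in clone A2, and in both cases the genes were picked by responses that use the same stimulated libraries. Of the 22 tested chemokine ligands it raised 10 in clone A1 and 9 in clone A2.

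Whether the response differed was tested as the difference of both responses. Without the block, 0 genes were called (0%), 489 had an unadjusted p under 0.05, and DESeq2 called 10. The difference was called for 30 genes (0.171%) with the block across all groups and for 262 (1.5%) with the block within genotype, 10 and 38 of them list members. The 10 members of the first fit were called in the second, and the log2 response was higher in clone A2 for 8 and lower for *Cx3cl1* (1.25 in clone A1 and 0.50 in clone A2) and *Bdnf* (-0.61 and -1.27). *Tnfaip3* rose by 0.94 in clone A1 and 1.84 in clone A2 on the log2 scale (difference 0.89, FDR = 0.018 with the block across all groups). *Il1rl1* rose by 0.81 and 1.77 (0.97, FDR = 0.005), and in both genes the clone that was lower untreated had the larger response. *Ccl5* rose from 1.15, 1.66 and 1.15 CPM to 5.69, 7.92 and 7.84 CPM in clone A1 and from 0.0403, 0.116 and 0.33 CPM to 3.88, 6.73 and 12.9 CPM in clone A2 (3.09, FDR = 0.033). The untreated levels of *Ccl5* in clone A2 were low and widely spread, in library 1 near the detection limit of 3 counts. After IL-1β this gene was not called between the clones. *Sod2* rose by 0.89 and 2.02 (1.11, FDR = 0.0044), with untreated levels not called different. *Il6* had responses of 4.52 and 5.93 and was not among the 10.

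**Figure D5:**
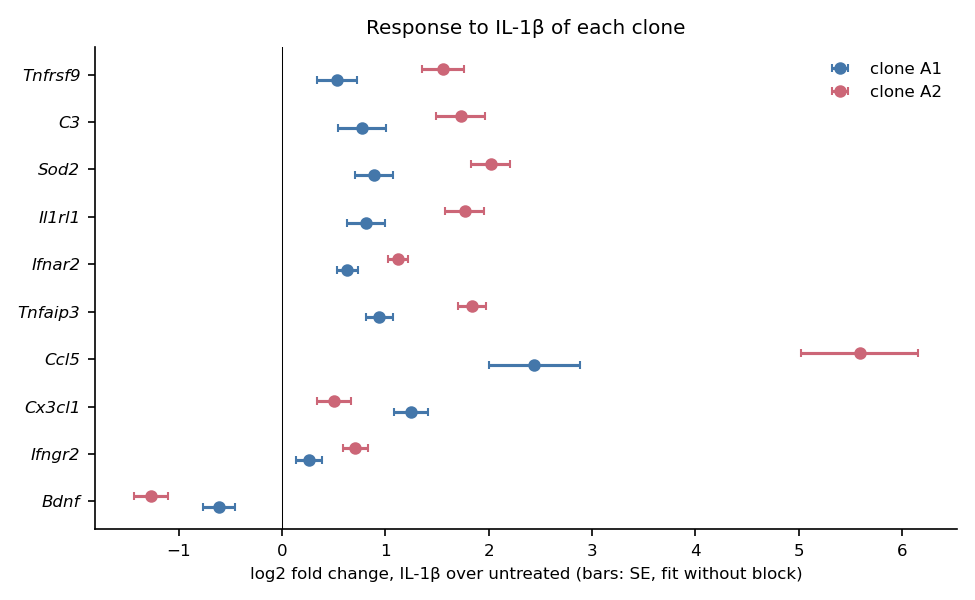
Log2 fold change of IL-1β over untreated (horizontal axis) in clone A1 (blue) and clone A2 (red) for the 10 list members whose responses differed with the replicate block, with bars of 1 SE from the fit without block. Clone A2 lies to the right of clone A1 for 8 genes, and to the left for Cx3cl1 and Bdnf.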

How the data were processed

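RNA of 3T3 MEFs was sequenced in 24 libraries. The authors trimmed reads with Trim Galore 0.6.0, aligned them with STAR 2.7.8a to mm10, and deposited raw counts per gene from STAR for each strand setting. The study's methods and the labels name different library kits, so the kit is not settled. The second strand setting was used, which held 95.47% to 95.95% of stranded pairs. The 4 lines that name no gene, with 26.72% to 34.42% of pairs, were left out.

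In R 4.3.3, with limma 3.58.1 and edgeR 4.0.16, genes were filtered with filterByExpr (minimum count 10, minimum total 15), scaled with TMM and fitted with 1 coefficient per group. The script was tested on simulated data. Symbols came from a GENCODE annotation of the same build and promoters from RefSeq. The detection limit was 3 counts.

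The members and lists were chosen with earlier results of these data known. Genes named by rule were the targeted genes, the cytokines the study names and, per list and direction, up to 3 called genes with the largest change, a mean of at least 1 CPM in a clone and no overlap of libraries. Other members were named for their roles after their values were seen.

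Alternatives were RLE and upper quartile scaling, unstranded counts, no filter, 10 counts in every library, edgeR's newer method, DESeq2 1.42.0, only the groups compared, the replicate number as a block (also within genotype) and leaving out each library. Leaving out library 1 of every group was added after seeing the data. Libraries of the same number deviated together, with correlations of 0.71, 0.573 and 0.661 between the stimulated clones and over 0.1 in every pair of clone groups, so the numbers pair the libraries. The main fit leaves this pairing out. Some results are not reported here.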

Additional observations from a re-analysis of the deposited data

Results flagged for a closer look

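For 10 list members the response to IL-1β differed between the clones when the replicate number was fitted as a block across all groups. The response of clone A2 minus that of clone A1, on the log2 scale, was 1.01 for *Tnfrsf9*, a costimulatory receptor, 0.96 for *C3*, 1.11 for *Sod2*, 0.97 for *Il1rl1* and 0.48 for *Ifnar2*, a chain of the type I interferon receptor. It was 0.89 for *Tnfaip3*, 3.09 for *Ccl5* and 0.44 for *Ifngr2*, a chain of the interferon gamma receptor. It was -0.75 for *Cx3cl1* and -0.67 for *Bdnf*. The value for *Ccl5* rests on low untreated levels of clone A2, in library 1 near the detection limit. Without the block, edgeR's test on all libraries called none of these differences, the smallest adjusted p of a list member was 0.32, and 40 of 428 list members (9.35%) had an unadjusted p under 0.05, against 2.79% of all genes.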

How the results depend on the processing

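The count of genes called between the stimulated clones stayed between 4235 and 7787 over the alternatives, with 7787 under the replicate block, 6686 without library 1 of every group, and 4253 to 5507 when 1 library was left out. The untreated comparison and those with *Lkb1*-/- MEFs also stayed within 1.5 times. The difference of the responses and both responses moved further. The difference of the responses gave 147 genes without a filter, 30 with the replicate block across all groups, 262 with the block within genotype, 10 with DESeq2, 20 without library 1 of every group and 0 to 9 when 1 library was left out. The response of clone A1 gave 908 without a filter, 1684 and 2860 with the blocks, 546 with DESeq2, 899 without library 1 of every group and 197 to 233 when 1 library was left out. The response of clone A2 gave 1643, 3133, 4557 and 2556 under the same settings except DESeq2, 246 with only the groups compared (471 for clone A1) and 679 to 1890 when 1 library was left out. The cause was not tested. Calls lost when 1 library was left out included *C1s1* (library 1, 2 or 3 of clone A1 or 2 or 3 of clone A2, 0.61 to 0.92), *Ccl9* (-0.64 and -0.58 without libraries 2 and 3 of clone A1, -0.47 and -0.63 without libraries 1 and 2 of clone A2) and *Cxcl12* (-0.41 without library 1 of clone A2, -0.63 and -0.58 without libraries 2 and 3 of clone A1). Others were *Nr4a2* (0.56, 0.48 and 0.38), *Pdgfra* (0.73, 0.74 and 0.6) and *Tap1* (1.17, 1.24 and 1.08), each without library 1 or 2 of clone A1 or library 3 of clone A2, *Cd55* (1.29 and 1.06, library 2 of clone A1 or 3 of clone A2), *Cdk1* (-0.17 and -0.15, library 3 of clone A1 or 1 of clone A2), *Ptgfr* (0.63, library 3 of clone A2) and *Serpina3h* (-0.59, library 1 of clone A2). Of 82 called genes named by the rule, 63 kept the call under every alternative run, 19 lost it under at least 1 and 0 reversed. Values that changed sign were all of uncalled genes. Over the libraries left out, the log2 fold changes ran from -0.11 to 0.25 for *S100a4*, from -0.01 to 0.13 for *Mcm2*, from -0.2 to 0.34 for *Clcf1*, from -0.23 to 0.09 for *Col6a1*, from -0.26 to 0.13 for *Cnn1*, from -0.02 to 0.25 for *Eif2s3y*, from -0.13 to 0.42 for *Dcn* and from 0 to 0.36 for *Pdgfrb*. Without library 1 of every group they were 0.03 for *Col6a1* and 0.18 for *Cnn1*.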

Other observations

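Outside the inflammatory and marker lists, the 5 genes in each direction with the largest called difference lay on several chromosomes. They were taken among genes above 3 in mean log2 CPM over all 24 libraries, wild-type MEFs included, whose libraries of the stimulated clones did not overlap. *Scrn1* was at a mean of 1.04 CPM in stimulated clone A1, 6.96 CPM in stimulated clone A2 and 71.6 CPM in stimulated wild-type MEFs. Higher in clone A2 were *Scrn1* (log2 fold change 2.73), *Mgat3*, a glycosyltransferase of N-glycans (2.61), *Rasl11a* (2.06), the fatty acid elongase *Elovl7* (1.95) and *Cdsn* (1.91), the last on chromosome 17. Lower were *Dpysl3* (-4.57), on chromosome 18, the collagen gene *Col8a1* (-3.66), *Perp*, a p53 target in desmosomes (-3.34), the transcription factor *Mecom* (-2.96) and the guidance cue *Sema3a* (-2.76). All 10 differed in the same direction untreated, from -4.26 for *Dpysl3* to 2.53 for *Scrn1*.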
